A study of Mus musculus with 6 samples.

Results

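The genes described here make, sense, move and export cholesterol. They were chosen by symbol, 32 of the 12911 genes in the count tables, and each of the 32 had a row and passed the filter on low counts. They comprise 18 enzymes of sterol synthesis (7 up to farnesyl diphosphate and 11 from squalene onward), 5 genes of the sterol sensor that governs those enzymes, 4 genes of sterol transport and storage, and 5 genes of the liver X receptor (LXR) and cholesterol efflux. The set does not hold every enzyme or receptor of the pathway. RNA came from glomerular endothelial cells, which line the capillaries of the kidney filter, of eNOS-null mice (lacking endothelial nitric oxide synthase). Control mice had no treatment, and STZ mice had received streptozotocin, a beta-cell toxin that is used to model diabetes. Both groups were eNOS-null, so no wild-type level was measured. Cells were sorted as EYFP positive from digested, bead-isolated glomeruli. The sources used here do not name the promoter that drives EYFP or the age, strain and sex of the mice. Each of the 3 control and 3 STZ libraries held pooled RNA of 4 mice, so the errors measure the spread between pools.

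Cells build cholesterol from acetyl-CoA through mevalonate, farnesyl diphosphate and squalene. When membrane sterol in the endoplasmic reticulum falls, the escort protein SCAP carries the transcription factor SREBP2 to the Golgi for cleavage, and its released part turns on the synthesis genes; INSIG proteins hold SCAP back when sterol is plentiful. Sterol excess also yields oxysterols, which activate LXR and with it the exporters ABCA1 and ABCG1 and the ubiquitin ligase MYLIP. Endothelial cells are bathed in lipoproteins and can take up, store and export cholesterol as well as make it.

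Total deposited counts ran from 4387339 to 8751732.5 in control libraries and from 10734376 to 12662371.5 in STZ libraries, so each STZ library was deeper than each control library. Nos3, the gene that the genotype targets, stood at 847, 757 and 917 CPM in control pools and 613, 749 and 667 CPM in STZ pools, which does not show which allele the transcripts carry (CPM, the usual counts-per-depth unit, are scaled to the normalised library size). The summed level of 12 endothelial markers was 14152 to 15269.6 CPM in control and 19782 to 21061 CPM in STZ pools, and Ehd3 and Emcn were the most abundant. Other glomerular cells were present too: 12 podocyte markers summed to 4518 to 7385 CPM in control and 4844 to 6023 CPM in STZ, with Podxl (also made by endothelium) among the most abundant and none at 0. The 12 mesangial and mural markers, led by Serpine2 and Itga8, summed to 1349.8 to 1459 CPM in control and 562 to 1116 CPM in STZ, with none at 0 and the groups not overlapping. Of 12 tubule markers 8 were measured (159.7 to 493 CPM in control and 46.8 to 241 CPM in STZ, led by Slc12a3 and Umod), and of 12 leukocyte markers 8 (92.1 to 163 and 122 to 134 CPM, led by Ptprc and S100a8). Xist, transcribed from the inactive X chromosome of females, lay between 689.7 and 746 CPM in control and between 0.387 and 0.865 CPM in STZ pools, and Y-linked Ddx3y ran from 2.65 to 3.37 CPM in control and from 131 to 139 CPM in STZ. Treatment therefore cannot be told apart from this split of sex-linked genes in any result below. In bulk RNA fewer cells of a type and less RNA per cell cannot be told apart either, and the part of other cells, depth or sex in the results was not tested.

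Of the 32 sterol genes, 7 fell and 1 rose in STZ pools, and 24 did not pass (edgeR quasi-likelihood F test, adjusted p below 0.05). The 7 were Msmo1, Insig1, Cyp51, Sqle, Srebf2, Idi1 and Fdft1, which are 5 synthesis enzymes and 2 genes of the sterol sensor, and the 1 that rose was the exporter gene Abcg1. Each of the 7 was lower by less than 1 on the log2 scale, with values from -0.60 (Cyp51) to -0.37 (Fdft1). The 8 called members are 25% of the set, whereas 9.78% of the 12786 tested genes were called. By direction, 7 of 32 against 4.32% of tested genes were called lower, and 1 of 32 against 5.47% higher. The median log2 fold change (STZ over control) of the members was -0.14, beside -0.01 over all tested genes, and 22 members lay below 0 and 10 above. All 3 STZ pools lay below all 3 control pools in 13 members and above them in 5, against 13.7% and 15.4% of tested genes, so 18 of 32 did not overlap against 29.1%. Left out in turn, each library but STZ pool 2 reduced the number of members called lower from 7 to 4, and without STZ pool 2 it was 5. Abcg1, Msmo1 and Insig1 passed in each of the 15 alternative settings run.

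**Figure D1:**
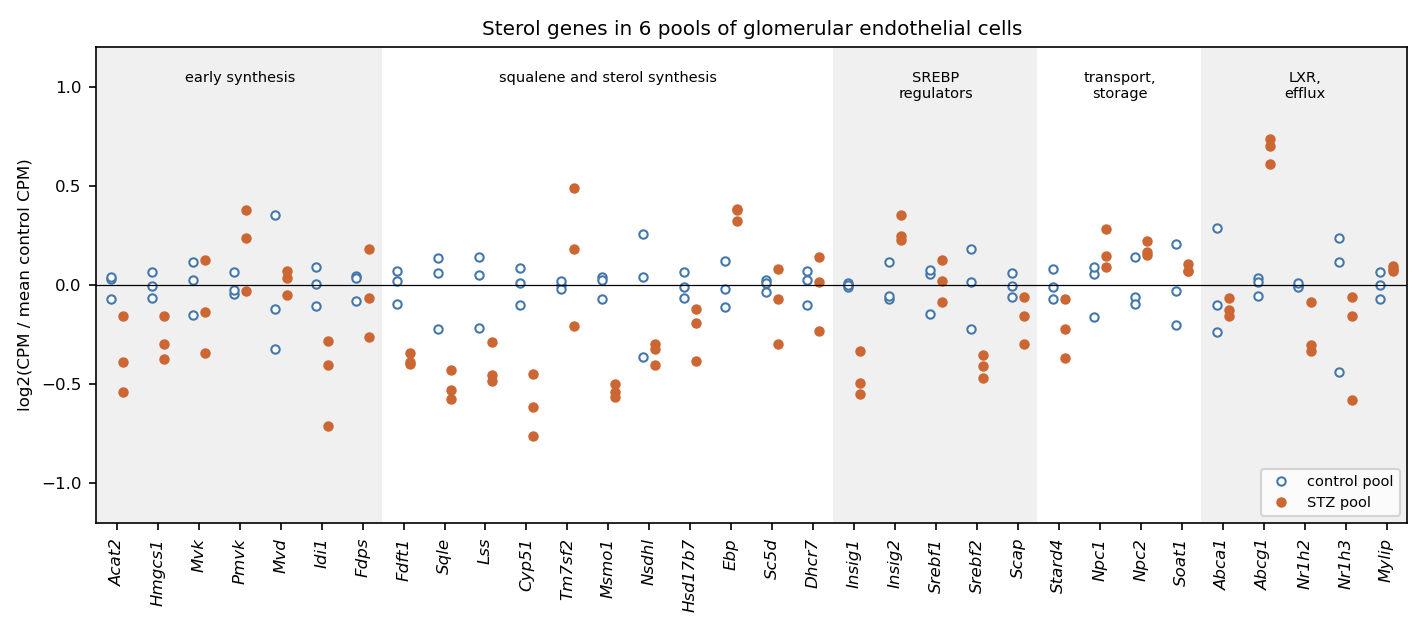
Level of each of the 32 genes in each of the 6 pools, as log2 of CPM over the mean control CPM of that gene, with open points for control and filled points for STZ pools. The filled points of Msmo1, Insig1, Cyp51, Sqle, Srebf2, Idi1 and Fdft1 lie below all open points, and those of Abcg1 lie above them.

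Early synthesis, from acetyl-CoA to farnesyl diphosphate, had 1 of 7 genes called, Idi1, which was lower, and a median of -0.10. The share called was 14.3%, near the 9.78% of all tested genes. Idi1 encodes the isomerase that interconverts the isoprene units (NM_145360; mm10 chromosome 13, 8885606 to 8892396, plus strand). It stood at 41.6, 47.7 and 44.8 CPM in control pools 1, 2 and 3 and 36.8, 27.3 and 33.8 CPM in STZ pools 1, 2 and 3. Each STZ pool was below each control pool, and Idi1 fell by 0.45 on the log2 scale (SE 0.13, n = 3 and 3; adjusted p = 0.0405 by edgeR). This call was lost without control pool 1 (0.0765), 2 (0.108) or 3 (0.0617) and without STZ pool 2 (0.115) or 3 (0.0848), values being adjusted p, and also with limma-voom (0.0502), with a replicate block (0.0640), in a fit that was not robust (0.0519) and when libraries were thinned to the smallest total count (0.0658).

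Hmgcs1, the synthase that makes the HMG-CoA from which mevalonate is formed, was at 82.5, 90.4 and 85.9 CPM in control pools 1, 2 and 3 and 77.5, 66.6 and 70.3 CPM in STZ pools 1, 2 and 3. Its groups did not overlap, but its log2 fold change of -0.27 ± 0.09 (SE) missed the threshold (adjusted p = 0.0873 by edgeR, 95% interval -0.47 to -0.07). Acat2, the cytosolic thiolase at the entry of the pathway, had 17.8, 19.1 and 19.2 CPM in control pools 1, 2 and 3 and 16.8, 12.9 and 14.3 CPM in STZ pools 1, 2 and 3, again without overlap and short of the threshold (-0.35 ± 0.15, adjusted p = 0.179 by edgeR). The other 4 genes overlapped between groups. These are the mevalonate kinase gene Mvk (log2 fold change -0.10, 95% interval -0.44 to 0.25), the phosphomevalonate kinase gene Pmvk (0.21, -0.14 to 0.55), the decarboxylase gene Mvd (-0.01, -0.43 to 0.41) and the farnesyl diphosphate synthase gene Fdps (-0.04, -0.29 to 0.22). The intervals of Mvk and Mvd include the value of Fdft1, so a fall of that size is not excluded for them. Summed over the 7 genes, the level in CPM was 238, 248 and 244 in control pools 1, 2 and 3 and 236, 189.6 and 211 in STZ pools 1, 2 and 3. Each STZ sum was below each control sum, that of STZ pool 1 only just, and STZ pool 2 had the lowest sum of the 6.

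Squalene and sterol synthesis, the stretch committed to cholesterol, had 4 of 11 genes called, all lower, and a median of -0.33. The share called was 36.4%, beside 9.78% of all tested genes. Msmo1 encodes the oxidase that strips methyl groups from the sterol ring (NM_025436; mm10 chromosome 8, 64718145 to 64733578, minus strand). Its level was 56.9, 61.7 and 61.0 CPM in control pools 1, 2 and 3 and 42.3, 40.5 and 41.2 CPM in STZ pools 1, 2 and 3. The STZ pools lay close together and below each control pool, and the log2 fold change was -0.53 ± 0.09 (SE, n = 3 and 3; adjusted p = 0.00288 by edgeR). Across the 15 alternatives its adjusted p ran from 0.000814 to 0.0168.

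Cyp51, the lanosterol demethylase (NM_020010; mm10 chromosome 5, 4080674 to 4104697, minus strand), was the member with the lowest fold change. Counts scaled to 29.2, 27.0 and 30.7 CPM in control pools 1, 2 and 3 and 21.3, 17.1 and 18.9 CPM in STZ pools 1, 2 and 3. The groups did not overlap, and Cyp51 changed by -0.60 ± 0.13 on the log2 scale (SE; adjusted p = 0.0112 by edgeR). Without control pool 1 the adjusted p was 0.0525.

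Sqle, the squalene epoxidase that is a rate-limiting step of the late pathway (NM_009270; mm10 chromosome 15, 59315092 to 59331193, plus strand), gave 45.6, 58.5 and 55.5 CPM in control pools 1, 2 and 3 and 35.8, 36.8 and 39.6 CPM in STZ pools 1, 2 and 3. Control pool 1 was the lowest of its group and still above each STZ pool. The log2 fold change was -0.50 ± 0.12 (SE; adjusted p = 0.0149 by edgeR), and it missed the threshold once control pool 2 (adjusted p = 0.0583) or STZ pool 1 (0.0749) was left out. Fdft1, the squalene synthase that takes farnesyl diphosphate into sterols (NM_010191; mm10 chromosome 14, 63145150 to 63177793, minus strand), was measured at 42.2, 39.0 and 43.7 CPM in control pools 1, 2 and 3 and 31.6, 31.8 and 32.9 CPM in STZ pools 1, 2 and 3. It fell in STZ pools (-0.37 ± 0.11, adjusted p = 0.0419 by edgeR), with no overlap. That call was lost without control pool 1 (0.124) or 3 (0.0884), without STZ pool 1 (0.160), 2 (0.0877) or 3 (0.101), with DESeq2 (0.0683), with a replicate block (0.0771) and when thinned (0.0503), values being adjusted p.

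The other 7 genes of this stretch did not pass. Lss, which closes the ring to lanosterol, was lower in each STZ pool than in each control pool (13.6 to 10.3 CPM in the means, log2 fold change -0.39 ± 0.17, adjusted p = 0.180 by edgeR). Hsd17b7, a ketoreductase of the same demethylation complex as Msmo1, also did not overlap between groups (-0.22, 95% interval -0.53 to 0.09). Nsdhl, the dehydrogenase of that complex and an X-linked gene, varied from 22.3 to 34.2 CPM among control pools and overlapped (-0.33, -0.66 to -0.01). Tm7sf2, a sterol reductase, went from 13.4 to 21.7 CPM among STZ pools (0.19, -0.20 to 0.57). The late enzymes Sc5d (-0.09, -0.38 to 0.20), a desaturase, and Dhcr7 (-0.02, -0.29 to 0.25), the 7-dehydrocholesterol reductase, had overlapping groups and intervals around 0.

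Ebp, the X-linked sterol isomerase, was the enzyme that pointed most strongly the other way. It had 27.5, 24.9 and 23.4 CPM in control pools 1, 2 and 3 and 33.0, 31.6 and 32.9 CPM in STZ pools 1, 2 and 3. Each STZ pool was above each control pool, and the log2 fold change of 0.35 ± 0.12 (SE) missed the threshold (adjusted p = 0.0784 by edgeR, 95% interval 0.10 to 0.61). Summed over the 11 genes of this stretch the level in CPM was 335, 340.2 and 353 in control pools 1, 2 and 3 and 288, 283 and 284 in STZ pools 1, 2 and 3. The 3 STZ sums lay within a narrow range, below each control sum.

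**Figure D2:**
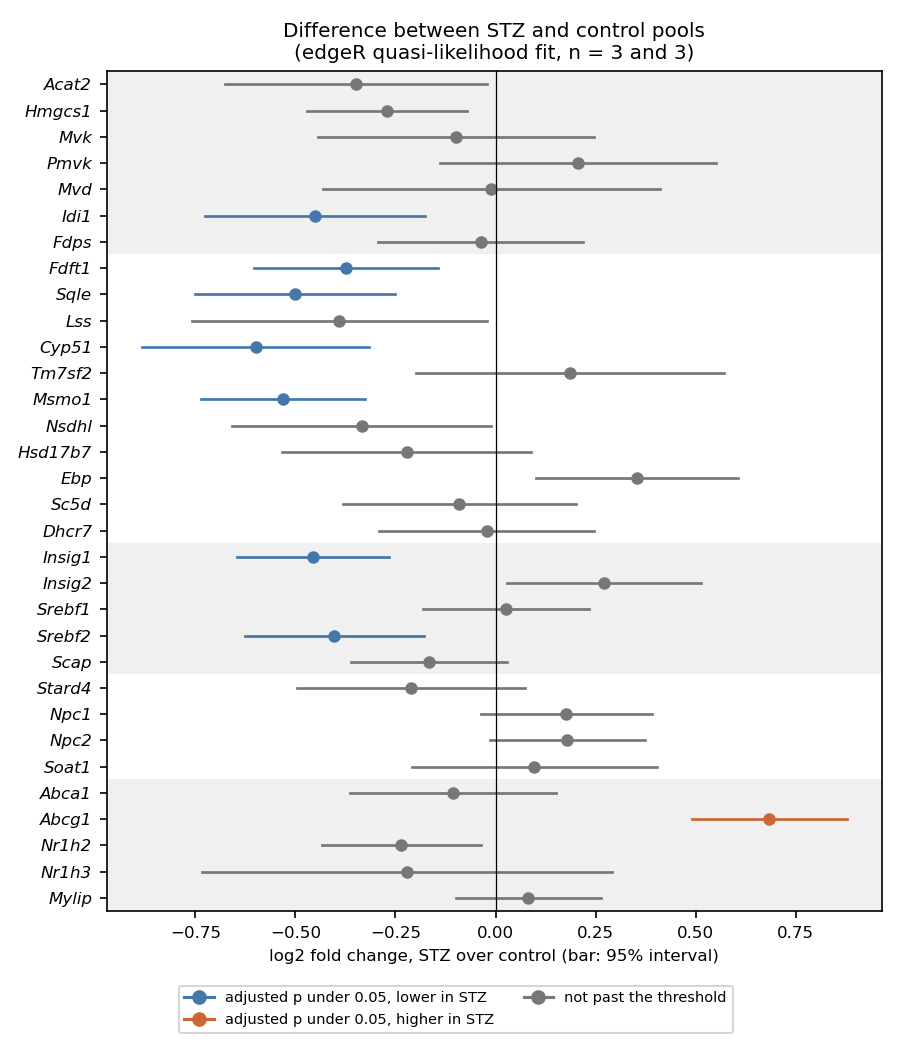
Log2 fold change of STZ over control for the 32 genes with its 95% interval, ordered by role from early synthesis (top) to LXR and efflux (bottom), from the edgeR quasi-likelihood fit of 3 against 3 pools. Values run from -0.60 (Cyp51) to 0.68 (Abcg1), and 8 genes passed the threshold.

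SREBP2 is known to bind sterol regulatory elements in the promoters of these enzymes beside CCAAT boxes, which bind NF-Y. Promoter windows from RefSeq (GRCm38.p6, the assembly of mm10; 250 bases before to 50 after the start site) were given for 26 of the 32 members, without Fdps, Fdft1, Sqle, Stard4, Npc1 and Abcg1. The letters TCACNCCAC, searched on both strands, were found in 1 member window, that of Hmgcs1, and in 0.951% of 9570 windows of tested genes. CCAAT on either strand was found in 17 of 26 member windows (65.4%), in 12 of the 15 windows of synthesis enzymes (80%) and in 38.4% of the 9570. The Pmvk window, which had no CCAAT, starts from a site 453 bases from the listed 5′ end. It lies within the span of the listed transcript. All 5 windows of members called lower held CCAAT (Cyp51, Idi1, Insig1, Msmo1 and Srebf2), as did 12 of 21 windows of members not called, while 33.5% of windows of all genes called lower did. These are matches of letters and not measured binding. The 250 bases before the start site are shown 5′ to 3′ for Hmgcs1, the member with the TCACNCCAC match, and for Msmo1, Insig1 and Cyp51, the members called lower with the smallest p that had a window. Capitals mark each CCAAT match, which reads ATTGG where it lies on the other strand, and, in Hmgcs1, the TCACNCCAC match 137 to 129 bases before the start site.
Hmgcs1, chr13:119690101-119690350, plus strand: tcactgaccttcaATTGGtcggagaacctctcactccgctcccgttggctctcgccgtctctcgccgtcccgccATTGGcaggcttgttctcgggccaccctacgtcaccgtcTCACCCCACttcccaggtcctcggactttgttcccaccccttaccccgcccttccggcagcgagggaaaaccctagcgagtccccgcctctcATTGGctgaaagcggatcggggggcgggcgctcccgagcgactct
Msmo1, chr8:64733579-64733828, minus strand: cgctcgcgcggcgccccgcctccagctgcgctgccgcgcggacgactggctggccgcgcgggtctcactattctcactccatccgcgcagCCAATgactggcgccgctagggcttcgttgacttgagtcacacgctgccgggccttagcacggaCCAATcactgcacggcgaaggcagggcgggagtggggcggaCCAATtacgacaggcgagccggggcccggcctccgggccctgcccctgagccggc
Insig1, chr5:28071162-28071411, plus strand: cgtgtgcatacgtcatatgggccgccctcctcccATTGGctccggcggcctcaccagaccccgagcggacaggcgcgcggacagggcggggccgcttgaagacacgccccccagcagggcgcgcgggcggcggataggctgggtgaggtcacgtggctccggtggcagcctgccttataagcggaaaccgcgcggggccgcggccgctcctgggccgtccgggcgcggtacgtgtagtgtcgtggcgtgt
Cyp51, chr5:4104698-4104947, minus strand: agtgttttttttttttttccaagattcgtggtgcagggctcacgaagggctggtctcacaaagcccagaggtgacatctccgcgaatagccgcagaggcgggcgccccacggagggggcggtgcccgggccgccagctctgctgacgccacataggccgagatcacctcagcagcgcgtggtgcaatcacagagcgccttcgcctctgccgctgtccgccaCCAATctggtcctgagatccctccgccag
In these stretches Hmgcs1 and Msmo1 each hold 3 CCAAT matches, and Insig1 and Cyp51 each hold 1. Neither motif overlaps the other there. Hmgcs1, with matches of both motifs, did not pass the test, whereas the other 3 did. Only the exact letters were searched, so a window without a TCACNCCAC match may still hold a variant sterol regulatory element.

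Among the 5 genes of the sterol sensor, Insig1 and Srebf2 fell and the other 3 did not pass (40% called, beside 9.78% of all tested genes). Insig1, which retains SCAP and is itself a classical SREBP target (NM_153526; mm10 chromosome 5, 28071412 to 28078662, plus strand), stood at 128, 129.6 and 129 CPM in control pools 1, 2 and 3 and 91.4, 102 and 88.1 CPM in STZ pools 1, 2 and 3. The control pools were within 2 CPM of each other and above each STZ pool. Insig1 changed by -0.46 ± 0.09 (SE; adjusted p = 0.00477 by edgeR), and adjusted p ran from 0.00115 to 0.0365 over the 15 alternatives. Its paralog Insig2, which is not induced by SREBP in the same way, had 33.3, 29.2 and 29.6 CPM in control pools 1, 2 and 3 and 39.3, 36.0 and 36.4 CPM in STZ pools 1, 2 and 3. Here each STZ pool was above each control pool, with a log2 fold change of 0.27 ± 0.11 that did not pass (adjusted p = 0.158 by edgeR). The ratio of Insig1 to Insig2 CPM was 3.85, 4.43 and 4.35 in control pools 1, 2 and 3 and 2.33, 2.84 and 2.42 in STZ pools 1, 2 and 3, a log2 difference of -0.74. The groups did not overlap (exact permutation p = 0.1, two-sided, the smallest that 3 against 3 allows; 0.1 after adjustment over 3 ratios, which were chosen after their values were seen).

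Srebf2 encodes SREBP2, the main activator of sterol synthesis (NM_033218; mm10 chromosome 15, 82147269 to 82204960, plus strand). It was at 125, 148 and 165 CPM in control pools 1, 2 and 3 and 106, 114 and 110.2 CPM in STZ pools 1, 2 and 3. The control pools were spread more widely than the STZ pools, which were all lower, and the log2 fold change was -0.40 ± 0.10 (SE; adjusted p = 0.0264 by edgeR). Leaving out control pool 2 (0.0631), control pool 3 (0.0690), STZ pool 1 (0.121) or STZ pool 3 (0.0832) ended the call, values being adjusted p. Srebf1, whose SREBP1 products act mainly on fatty acid synthesis, overlapped (92.5 ± 7.71 CPM in control and 94.0 ± 6.92 CPM in STZ, SD, n = 3 each) with a log2 fold change of 0.03 and an interval of -0.18 to 0.23. The Srebf2 to Srebf1 ratio was 1.49, 1.53 and 1.70 in control pools 1, 2 and 3 and 1.13, 1.13 and 1.26 in STZ pools 1, 2 and 3, again without overlap (log2 difference -0.42, exact permutation p = 0.1, 0.1 after adjustment). That ratio too was chosen after its values were seen, and its p is the smallest possible. Scap, the escort gene, had 111, 115 and 120.4 CPM in control pools 1, 2 and 3 and 94.0, 111 and 104 CPM in STZ pools 1, 2 and 3. The highest STZ pool was just under the lowest control pool, and the change of -0.17 ± 0.09 did not pass (adjusted p = 0.288 by edgeR).

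Of the 4 transport and storage genes none passed, in edgeR, DESeq2 or limma-voom, and none had an unadjusted p under 0.05 in any of the 3. Npc1 and Npc2 hand lysosomal cholesterol on to other membranes. Npc2 had 111, 128 and 108 CPM in control pools 1, 2 and 3 and 135, 129 and 129.9 CPM in STZ pools 1, 2 and 3, each STZ pool just above each control pool (0.18, 95% interval -0.01 to 0.37). Npc1 overlapped (0.18, -0.04 to 0.39). Stard4, a cytosolic sterol carrier, stood at 24.5 ± 1.29 CPM in control and 21.1 ± 2.19 CPM in STZ (SD, n = 3 each; -0.21, -0.50 to 0.07), and Soat1, which esterifies cholesterol for storage, at 19.4 ± 2.77 CPM in control and 20.5 ± 0.307 CPM in STZ (0.10, -0.21 to 0.40). The sum of the 4 in CPM was 223, 231 and 229 in control pools 1, 2 and 3 and 249, 244 and 257 in STZ pools 1, 2 and 3. Each STZ sum was above each control sum, unlike the sums of the synthesis genes.

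Abcg1, an ABC transporter that passes cholesterol to high-density lipoprotein and is abundant in endothelium, was the 1 member that rose (NM_009593; mm10 chromosome 17, 31057694 to 31117981, plus strand). Levels were 50.9, 54.3 and 53.5 CPM in control pools 1, 2 and 3 and 85.9, 88.1 and 80.7 CPM in STZ pools 1, 2 and 3. Both groups were tight and far apart, at 52.9 ± 1.78 CPM in control and 84.9 ± 3.80 CPM in STZ (SD, n = 3 each), a 1.61-fold difference with a log2 fold change of 0.68 ± 0.09 (SE; adjusted p = 0.000348 by edgeR). Over the 15 alternatives the log2 fold change ran from 0.63 to 0.72 and adjusted p from 1.21e-06 to 0.00530. Abca1, the exporter to lipid-poor apolipoprotein, stood at 83.2, 75.6 and 109 CPM in control pools 1, 2 and 3 and 81.8, 80.2 and 85.3 CPM in STZ pools 1, 2 and 3. Control pool 3 was the highest, and the STZ pools lay among the control pools (-0.11, 95% interval -0.36 to 0.15). Without control pool 3 the Abca1 value was 0.06. The ratio of Abcg1 to Abca1 CPM was 0.612, 0.718 and 0.492 in control pools 1, 2 and 3 and 1.05, 1.10 and 0.946 in STZ pools 1, 2 and 3 (log2 difference 0.78, no overlap, exact permutation p = 0.1, 0.1 after adjustment). This ratio was chosen after its values were seen, and its p is the smallest that 3 against 3 allows.

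The LXR genes themselves did not pass. Nr1h2 (LXR beta) had 202, 201 and 204 CPM in control pools 1, 2 and 3 and 164, 190.2 and 160.5 CPM in STZ pools 1, 2 and 3, with each STZ pool below each control pool (-0.24 ± 0.09, adjusted p = 0.135 by edgeR). Nr1h3 (LXR alpha) was low, at 7.75 ± 1.81 CPM in control and 6.53 ± 1.19 CPM in STZ (SD, n = 3 each) from deposited counts of 38.5 to 92.5 per library, and overlapped (-0.22, 95% interval -0.73 to 0.29). Mylip, an LXR target that marks lipoprotein receptors for degradation, was at 159.7, 152 and 167 CPM in control pools 1, 2 and 3 and 169, 170.4 and 167 CPM in STZ pools 1, 2 and 3. Its STZ pools were just above its control pools, and the interval of -0.10 to 0.26 around 0.08 does not include the value of Abcg1.

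**Figure D3:**
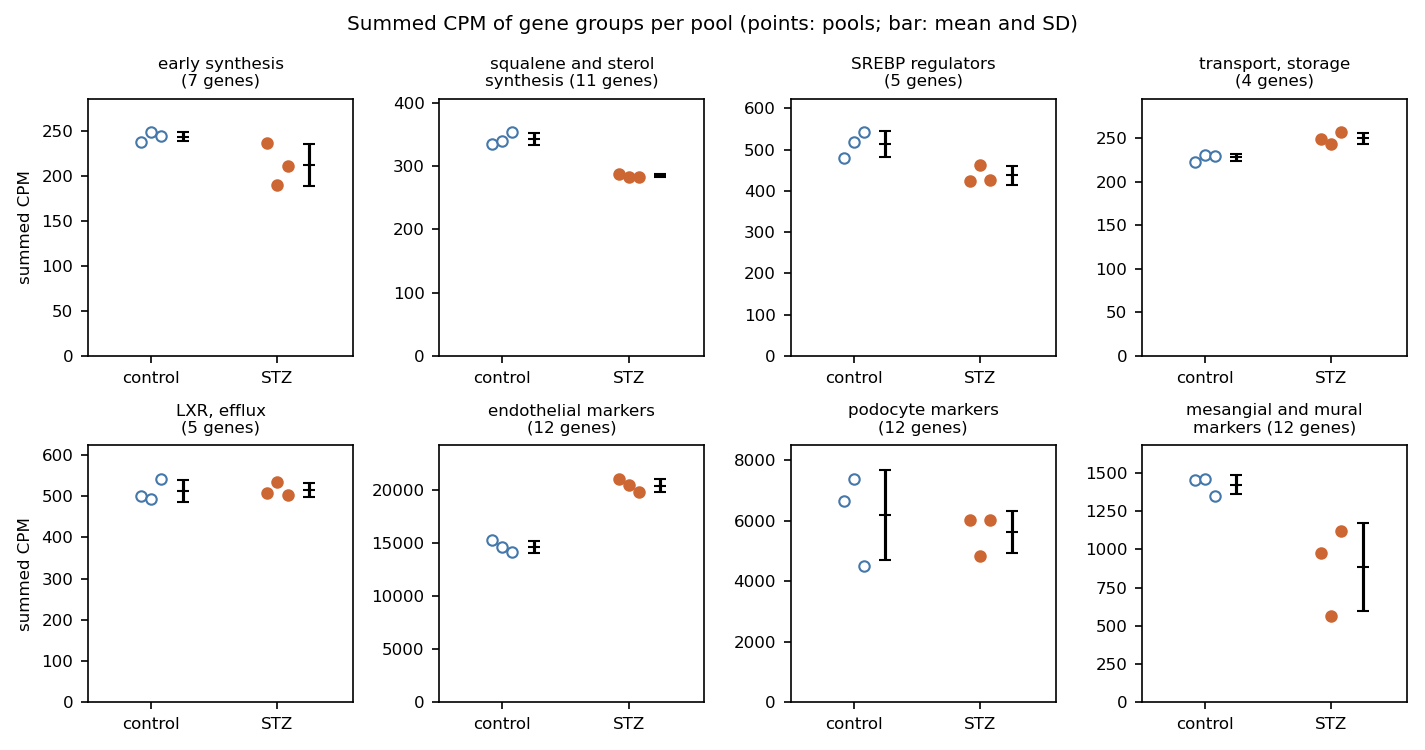
Summed CPM per pool of the 5 groups of sterol genes and of 3 lists of cell type markers, with open points for control and filled points for STZ pools and bars for mean and SD. Sums of early synthesis, of squalene and sterol synthesis and of SREBP regulators were lower in each STZ pool than in each control pool. Those of transport and storage were higher, and those of LXR and efflux overlapped. Endothelial markers were higher and mesangial and mural markers lower in each STZ pool, and podocyte markers overlapped.

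Per length of the listed transcript, levels differed more between genes than between groups. Nr1h2 was the highest, in CPM per kb at 101 in control and 85.4 in STZ, followed by Mylip (53.5 in control and 56.6 in STZ) and Insig1 (48.6 in control and 35.5 in STZ). Of the enzymes, Fdps (34.9 in control and 34.0 in STZ) and Msmo1 (32.8 in control and 22.7 in STZ) led, and Lss (4.40 in control and 3.32 in STZ) and Hsd17b7 (3.96 in control and 3.39 in STZ) were the lowest. Mylip lay above Insig1 in all 6 pools, whereas Npc2, Fdps, Srebf2 and Msmo1, next in order, overlapped with their neighbours in the order. Srebf2 was above Srebf1 per kb in each pool (32.0 in control and 24.1 in STZ, against 21.5 in control and 21.9 in STZ), and Nr1h2 was far above Nr1h3 (3.97 in control and 3.34 in STZ). The mean of Npc2 (35.5 in control and 40.2 in STZ) was below that of Insig1 in control and above it in STZ. Levels per kb assume that reads fall along the transcript given in the table, which was not checked.

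**Figure D4:**
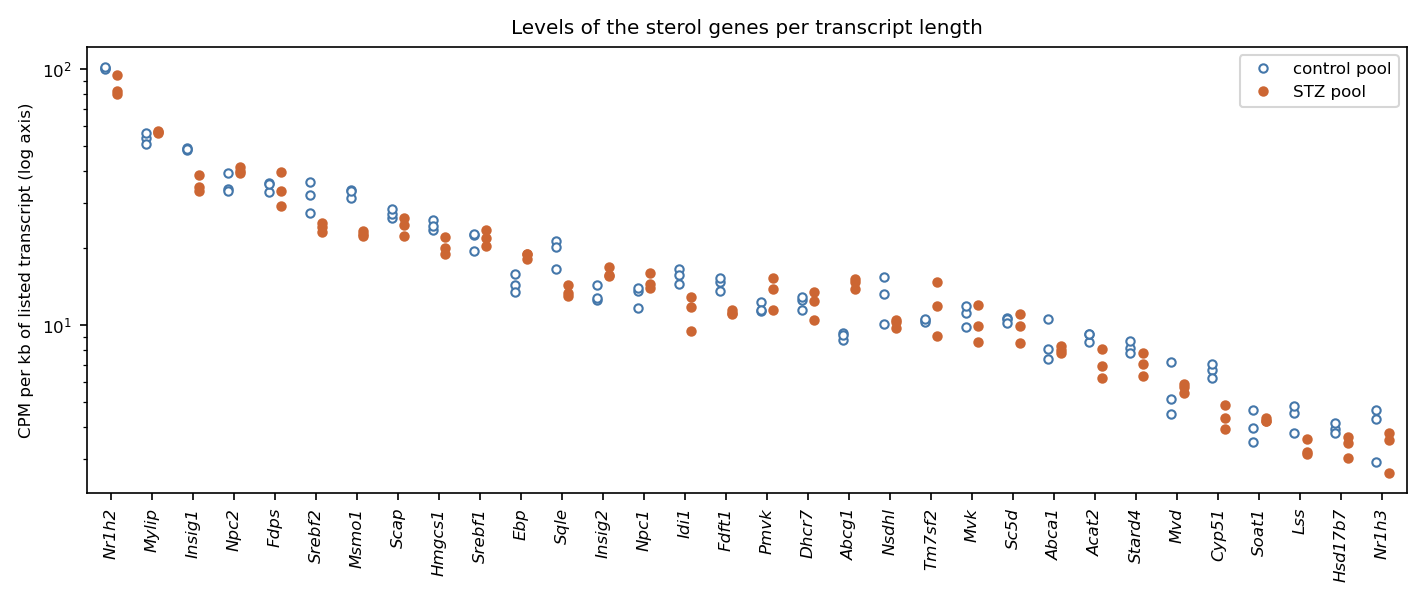
Level of each gene per pool in CPM per kb of listed transcript on a log axis, ordered by the mean of both groups, with open points for control and filled points for STZ pools. Nr1h2 is the highest and Nr1h3 the lowest.

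Neighbouring pathways were read from lists of related genes. In the isoprenoid branch, which uses farnesyl diphosphate for other products, 1 of 13 measured genes rose and 1 fell. Coq2, of ubiquinone synthesis, went from 93.9 to 69.8 CPM (-0.43 ± 0.08, adjusted p = 0.00589 by edgeR). Dhdds, a subunit of the dolichol synthase, went from 35.7 to 47.2 CPM (0.40 ± 0.11, adjusted p = 0.0430), and it did not pass without control pool 1 (0.119) or 3 (0.0934), without STZ pool 1 (0.121), 2 (0.0527) or 3 (0.159), with a replicate block (0.0777), with DESeq2 (0.0537), with upper-quartile scaling (0.0539) or in a fit that was not robust (0.0512). Of 17 genes of SREBP processing and sterol-regulated degradation, 1 rose, the ubiquitin-conjugating enzyme gene Ube2g2 (0.32 ± 0.09, adjusted p = 0.0374 by edgeR). Ube2g2 kept its call in edgeR without control pool 3 and lost it without each other library (adjusted p from 0.0634 to 0.172), with DESeq2 (0.0689), with a replicate block (0.0814) and when libraries were thinned to the smallest total (0.102). Of 18 genes of sterol transfer between membranes, 0 passed in edgeR, DESeq2 or limma-voom, and 3, 2 and 2 had an unadjusted p under 0.05. Those with the smallest p were Gramd1a (-0.33, adjusted p = 0.107 by edgeR) and Cav1 (0.25, 0.169).

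Fatty acid synthesis, the branch under SREBP1, had 2 of 15 genes called higher and 0 lower, although 9 lay below 0 and 6 above (median -0.09). All STZ pools lay below all control pools in 4 of the 15 and above them in 3, beside 13.7% and 15.4% of tested genes. The 2 called genes were the elongase gene Elovl5 (158 to 260.4 CPM, 0.72 ± 0.09, adjusted p = 0.000248 by edgeR) and Pnpla2 (165 to 262 CPM, 0.66 ± 0.10), which encodes a triglyceride lipase and not a synthetic enzyme. In the list of lipoprotein uptake and lysosomal release, 3 of 12 measured genes rose and 0 fell. Gpihbp1, which anchors lipoprotein lipase on capillaries, went from 79.5 to 210.4 CPM (1.39 ± 0.12, adjusted p = 8.57e-06 by edgeR), and the sorting receptor gene Sort1 from 88.9 to 149 CPM (0.75 ± 0.10). The lysosomal membrane gene Lamp2 rose by 0.39 ± 0.11 (adjusted p = 0.0337) but did not pass without control pool 1 (0.108) or 3 (0.0693), without STZ pool 1 (0.156) or 3 (0.0904), with a replicate block (0.0511) or when thinned (0.0713). Of 16 other genes of efflux, oxysterols and esters, 2 rose and 1 fell. Abcg2, a transporter of drugs and other substrates, went from 68.0 to 121 CPM (0.83 ± 0.10, adjusted p = 0.000132 by edgeR). Ch25h, the cholesterol 25-hydroxylase that makes an oxysterol known to hold back SREBP processing, had 30.0, 34.7 and 50.1 CPM in control pools 1, 2 and 3 and 61.2, 75.2 and 59.2 CPM in STZ pools 1, 2 and 3. Its groups did not overlap and it rose by 0.79 ± 0.18 (adjusted p = 0.0238 by edgeR), but did not pass without control pool 1 (0.0717), control pool 2 (0.112) or STZ pool 1 (0.0676). Nrip1, a nuclear receptor corepressor gene, fell (-0.75 ± 0.17, adjusted p = 0.0114) but did not pass without STZ pool 3 (0.0510) or when thinned (0.0509). The 11 calls in these lists are read against the 9.78% of all tested genes, and their total of 91 measured genes gives 12.1%. Left out in turn, control pool 1 or STZ pool 1 brought the 11 calls to 7.

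**Figure D5:**
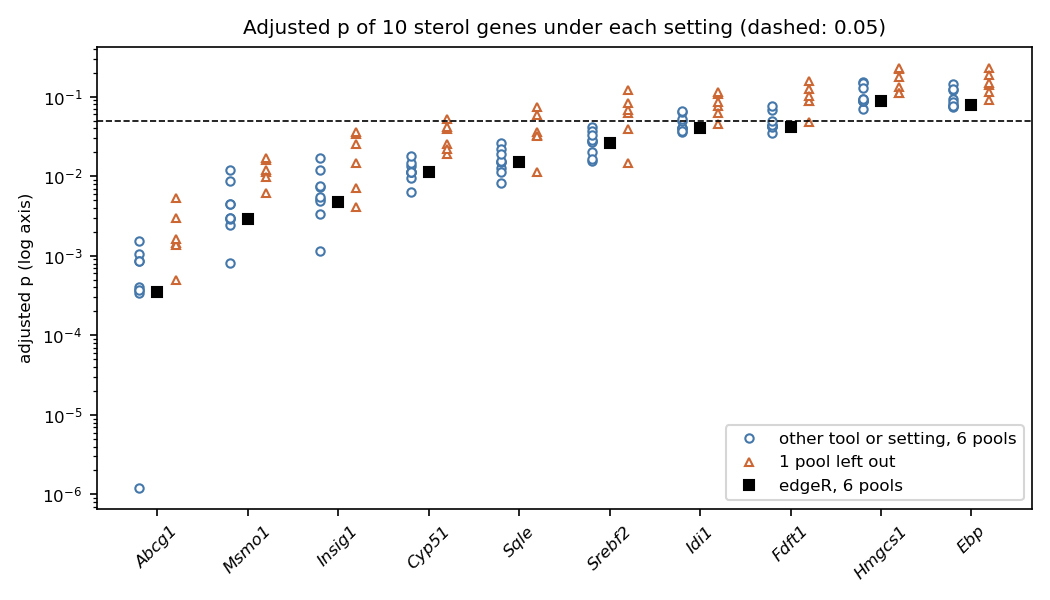
Adjusted p on a log axis of the 8 called genes and of Hmgcs1 and Ebp in edgeR with 6 pools (squares), under 9 other tools or settings with 6 pools (circles) and with 1 pool left out (triangles), with the threshold of 0.05 dashed. Abcg1, Msmo1 and Insig1 stay under the line throughout, and Idi1 and Fdft1 lie on both sides of it.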

How the data were processed

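Expected counts per gene, deposited by the authors in 1 table per library, were analysed for 3 control and 3 STZ pools. Values come in steps of 0.5. Per the submitters' processing notes the build is mm10 and limma was used; the sources used here do not give the aligner, counter, strand setting or gene filter. Groups come from the labels. Blank cells (34, over 30 genes) were set to 0, values were rounded to whole counts, and 1 was added to listed starts.

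All 12911 genes were fitted with edgeR 4.0.16 in R 4.3.3 (filterByExpr, TMM, robust quasi-likelihood F test, two-sided, Benjamini-Hochberg over 12786 tested genes, threshold 0.05). CPM use the TMM-normalised library size. SE is the log2 fold change over the root of F, and errors without a name are SE. The biological coefficient of variation was 0.117. Tested on simulated data with 12762 genes, the fit recovered 50.7% of 67 genes changed 1.5-fold, 79.1% of 67 changed 2-fold and 97% of 66 changed 4-fold. Changes of 1.5-fold were thus often missed in the simulation. It changed far fewer genes than the 1251 called in the data, drawn at any level. Its shares therefore need not hold for the members. Most members called lower changed by less than 1.5-fold. That size was not simulated, so the share missed there is not known. Intervals and errors cover the spread between pools. Where nothing says that pools differ in litter or batch, the spread may be partly technical.

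The members and lists were chosen with earlier results of these data known, and no list was tested as a set. Named were all members, up to 4 called genes of each related list (or 2 with the smallest p), the 2 most abundant markers of each cell type (1 podocyte marker is not reported here), and Nos3 and Xist, with Ddx3y added after its values were seen. Alternatives were other scalings, filters and tools (DESeq2 1.42.0, limma-voom of limma 3.58.1), a fit that is not robust, a replicate block, thinning, a threshold of 0.10 and leaving out each library.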

Additional observations from a re-analysis of the deposited data

How the results depend on the processing

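The direction of all 8 called members held in the 15 alternative settings. Under the 9 settings with all 6 libraries, 5 to 7 members were called lower and 1 higher. At a threshold of 0.10 the number lower was 8 (Hmgcs1 added) and the number higher was 2 (Ebp added). With 1 library left out, 4 to 5 members were called lower, 1 higher, 662 (STZ pool 1) to 1291 (control pool 3) genes in all and 7 (control pool 1 or STZ pool 1) to 15 (control pool 3) genes of the related lists. With all 6 libraries 8 to 12 genes of those lists were called. No scaling moved the median of all tested genes by over 0.1 on the log2 scale. The numbers 1 to 3 in the titles are not stated to pair pools. Deviations from the group means correlated at 0.119, -0.128 and -0.163 between same-numbered pools over tested genes, and STZ pool 1 correlated best with control pool 2. With 3 pools per group, each centred on its group mean, these weak values cannot decide whether pools were paired. With the replicate block, and when thinned, 5 members were called lower (Idi1 and Fdft1 were not), 1 higher, and 1001 and 1056 genes in all. Members whose sign turned were near 0, and none of them passed the test in any setting. Thinned to the smallest total, Mvk was at 0.0170, Mvd at 0.267, Srebf1 at -0.0398 and Soat1 at -0.0387, and with the replicate block Mvd was at 0.0243. With 1 library left out, Mvk ran from -0.229 (STZ pool 1) to 0.0075 (STZ pool 3), Mvd from -0.128 (control pool 3) to 0.230 (control pool 1), Fdps from -0.159 (STZ pool 1) to 0.0623 (STZ pool 2) and Sc5d from -0.181 (STZ pool 1) to 0.0034 (STZ pool 2). Dhcr7 ran from -0.106 (STZ pool 1) to 0.0749 (STZ pool 3), Srebf1 from -0.0429 (control pool 1) to 0.0786 (STZ pool 3), Abca1 from -0.208 (control pool 2) to 0.0561 (control pool 3) and Soat1 from -0.0032 (control pool 1) to 0.206 (control pool 3). The cause of these moves was not tested. Where 1 library was left out of a group, 2 remained in it. Counts per library from 37.5 (Mvd, control pool 3) and 38.5 (Nr1h3, control pool 3) limit the precision of the lowest members.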
